A study of Mus musculus with 8 samples.

Results

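Transcripts of 10 genes that mark or equip the ON bipolar cell were followed in the whole retina of Lpcat1 WT and Lpcat1 KO mice at 2 weeks of age. They are Grm6, Trpm1, Nyx, Lrit3, Gnao1, Gng13 and Rgs11 of the light-response cascade and Prkca, Pcp2 and Vsx1 as cell markers. Every array probe whose RefSeq transcript belongs to one of these genes was taken. This gave 13 probes for 9 of the 10 genes, out of 55681 probes on the array. No probe was matched to a Lrit3 transcript, so Lrit3 is not analysed here. Total RNA was labelled from 4 WT and 4 KO samples of the C57BL/6 strain. The labels name no treatment. The KO is a global deletion of Lpcat1, which encodes the acyltransferase that makes saturated phosphatidylcholine, and the line was crossed to remove the homozygous rd8 mutation of Crb1 that some C57BL/6 substrains carry. The labels do not say that each sample came from its own animal, so p-values measure the spread between these samples only.

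ON bipolar cells are the interneurons that signal an increase in light to the inner retina. Photoreceptors release glutamate in the dark, which binds mGluR6 on the bipolar dendrite and, through the G protein Go, keeps the cation channel TRPM1 closed. Light lowers the glutamate, an RGS protein complex turns Go off, and TRPM1 opens. Rod bipolar cells and ON cone bipolar cells share this cascade, and mutations in several of its genes cause congenital stationary night blindness.

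Trpm1 is the effector of the cascade and the member with the most probes, and RefSeq lists a pair of start sites for it in GRCm38.p6. The 250 bases before each start are shown because the channel acts last in the cascade and its probes read a pair of transcripts. Both lie on the plus strand of chromosome 7. Capitals mark matches, on either strand, to motifs that factors of bipolar cells and photoreceptors are known to bind.
Trpm1 upstream start, chr7:64153585-64153834: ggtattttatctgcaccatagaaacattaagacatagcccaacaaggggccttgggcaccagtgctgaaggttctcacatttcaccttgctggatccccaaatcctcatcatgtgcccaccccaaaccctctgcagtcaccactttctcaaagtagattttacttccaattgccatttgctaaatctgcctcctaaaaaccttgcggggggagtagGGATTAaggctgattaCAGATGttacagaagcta
Trpm1 downstream start, chr7:64185209-64185458: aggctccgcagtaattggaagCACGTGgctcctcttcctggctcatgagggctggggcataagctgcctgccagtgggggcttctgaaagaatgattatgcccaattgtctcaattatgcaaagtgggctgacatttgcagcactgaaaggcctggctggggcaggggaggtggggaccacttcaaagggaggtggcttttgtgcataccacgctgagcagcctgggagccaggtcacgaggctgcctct
The upstream start has TAATCC, read on the minus strand, beginning 34 bases before the start, and CAGATG beginning 18 bases before it. The downstream start has CACGTG beginning 229 bases before it. In all, 6 motifs were searched, on both strands, in 300-base windows that also take in 50 bases after the start. These windows numbered 14 for 9 of the genes, all but Rgs11. TAATCC stood in 1 of the 14 windows and in 7.06% of all 32851 RefSeq windows. The homeodomain core TAATTA stood in 1, against 5.29% of all windows. A variant of the first motif, TAATCT, stood in 2, against 8.19%. Of the E-boxes, CACGTG was found in 1 window against 7.15% of all, while CAGATG was found in 3 against 17.2%, with 2 of the 3 being overlapping Pcp2 windows that share the same site, and the related CAGCTG in 1 against 16.3%. The Grm6 window held none of them. A match describes these letters and is not a binding site. No file used here says which Trpm1 start each probe reads.

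Levels are log2 of the background-corrected signal minus the 75th percentile of all non-control spots of the same array, so that 0 is the signal of that percentile. They are compared between samples and never between probes. The 75th percentile lay between a signal of 638 and 738 on the 8 arrays, and 60.3% to 66.0% of spots were well above background. The 13 probes were well above background on all 8 arrays, and none had an outlier or saturated spot. The check of the deletion, a single Lpcat1 probe, gave -0.41 ± 0.025 in WT and -0.87 ± 0.064 in KO (SD, n = 4 each), a KO signal of 72.5% of the WT signal (limma, adjusted p = 0.0036). This value alone does not show loss of the gene, and the place of the probe relative to the deleted part is not known here. The WT and KO samples took different rows of 1 slide, so row and genotype cannot be told apart. A probe was called changed where its adjusted p fell under 0.05 and its fold change exceeded 1.2, limits taken from the study. Of 33972 tested probes, 470 were called higher and 522 lower in KO, a split of 583 and 367 when scaled to the detected probes and of 614 and 346 under cyclic loess.

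None of the 13 probes was called, against 2.92% of all tested probes. At 2 weeks the largest difference, that of Nyx, was a 1.18-fold higher signal in KO. Most of the values lay in the same direction. In KO 11 probes were higher and 2 lower, with a median difference of 0.11 on the log2 scale, whereas 38.0% of all tested probes were higher and their median was -0.037. An adjusted p under 0.05 with no limit on fold was reached by 1 member, Gng13, against 5.5% of all tested probes. An unadjusted p under 0.05 in the direction of KO was reached by 5 of 13 probes, against 8.13% of all. All 4 KO values exceeded all 4 WT values for 4 of 13 probes, those of Nyx, Gng13 and Rgs11 and the brighter Gnao1 probe, against 6.04% of all. The KO values lay below all WT values for 0 of 13, against 11.4% of all. Several probes read the same gene, and the members were chosen together, so these counts are a description.

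**Figure D1:**
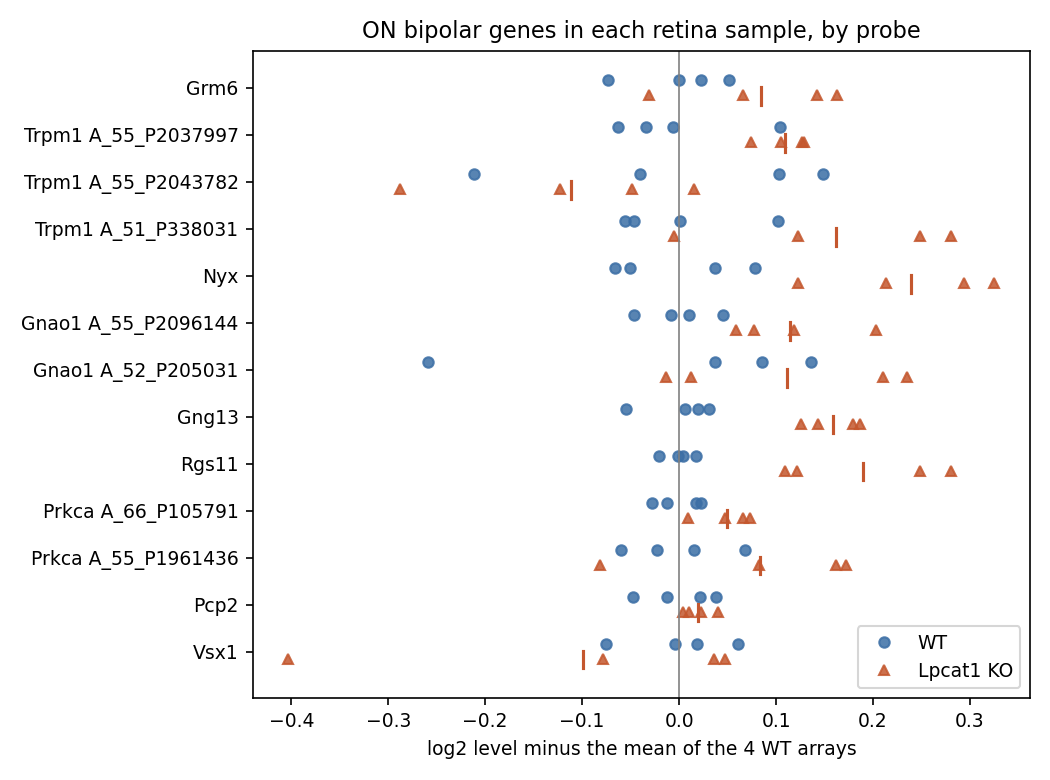
Each row is 1 probe; the horizontal axis is the log2 level minus the mean of the 4 WT samples. Circles are WT samples, triangles KO samples and short vertical bars KO means. The triangles of Nyx, Gng13, Rgs11 and the brighter Gnao1 probe all lie to the right of the circles, and the KO sample of Vsx1 at the far left is replicate 1.

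Grm6 encodes mGluR6, the glutamate receptor at the dendritic tips. Its levels in WT replicates 1 to 4 were 5.16, 5.26, 5.24 and 5.29, and in KO replicates 1 to 4 they were 5.21, 5.30, 5.40 and 5.38. The KO values of replicates 2, 3 and 4 lay above every WT value, and that of replicate 1 lay among them. That is a difference of 0.085 (SE 0.054, limma, adjusted p = 0.380), with a 95% confidence interval of 0.974 to 1.155 as a fold. The interval thus ended short of 1.2-fold under this scaling, while the difference was larger under quantile normalization (0.165) and cyclic loess (0.143). Of the other 7 genes for metabotropic glutamate receptors, 6 had a higher and 1 a lower value in KO, 0 were called, and the median difference was 0.053.

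Nyx encodes nyctalopin, the leucine-rich repeat protein that holds TRPM1 at the dendritic tip. Nyx levels were -0.36, -0.21, -0.34 and -0.25 in WT and -0.17, 0.033, -0.079 and 0.0022 in KO. The lowest KO value, that of replicate 1, lay above the highest WT value. The difference of 0.24 (SE 0.058) was the largest among the members, a fold of 1.18 with an interval of 1.08 to 1.29. It missed both the limit of 1.2 on fold and that of 0.05 on p (limma, adjusted p = 0.0520). Without KO replicate 1 it was 0.28 with an adjusted p of 0.0381, past both limits. Among the 7 other runs that left out 1 sample, the adjusted p was 0.0903 to 0.128 and the probe was not called.

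Trpm1 encodes the channel that opens in light. Its brightest probe read 4.57, 4.46, 4.40 and 4.43 in WT and 4.59, 4.57, 4.54 and 4.59 in KO, a difference of 0.11 (SE 0.045, limma, adjusted p = 0.192). WT replicate 1 was as high as the KO samples, and the other WT samples lay below them. The second probe for the same transcript read 1.25, 1.103, 1.29 and 0.93 in WT and 1.02, 1.09, 0.86 and 1.16 in KO, a difference of -0.11 (SE 0.094, limma, adjusted p = 0.518). The probe for the other transcript read -0.95, -0.90, -0.96 and -0.80 in WT and -0.62, -0.66, -0.78 and -0.91 in KO, a difference of 0.16 (SE 0.071, limma, adjusted p = 0.212). On these last probes the groups overlapped. The second probe, which alone had a negative value, ranged from -0.182 without WT replicate 4 to -0.0522 without KO replicate 3 when single samples were left out. Over the 5 pairs of probes that read the same gene, an exact two-sided permutation test gave adjusted p-values of 0.357 to 0.971. The first and second Trpm1 probes differed in their effect by 0.22 (raw exact p = 0.0857), and the smallest p that 4 against 4 samples can give is 0.0286, or 0.143 after adjustment where only 1 of the 5 pairs reaches it. The test was therefore too small to show or exclude a difference between single pairs of probes. Of 7 other TRPM genes 5 were tested, with 2 higher, 3 lower, 0 called and a median of -0.017 (up to 0.040 with normexp). Trpm5 and Trpm8 were well above background on no array. The TRPM counts turned to 3 higher and 2 lower when scaled to the detected probes or corrected with normexp, and to 4 and 1 under cyclic loess.

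Gnao1 encodes the alpha subunit of Go, which neurons use widely beyond bipolar cells. The brighter Gnao1 probe read 4.29, 4.25, 4.20 and 4.23 in WT and 4.32, 4.36, 4.44 and 4.30 in KO. The groups did not overlap, and the difference was 0.11 (SE 0.044, limma, adjusted p = 0.164). The dim Gnao1 probe, for another transcript, ranged from -3.02 to -2.62 in WT and from -2.77 to -2.52 in KO, and its difference was 0.11 (SE 0.099, limma, adjusted p = 0.539), but 0.0244 without WT replicate 4 and 0.0694 without KO replicate 1.

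Gng13 encodes the gamma subunit that pairs with Gnb3 in the Go of ON bipolar cells. Gng13 levels were 5.58, 5.57, 5.596 and 5.51 in WT and 5.69, 5.74, 5.71 and 5.75 in KO. Its samples were among the tightest, 5.57 ± 0.038 in WT and 5.72 ± 0.029 in KO (SD, n = 4 each), with no overlap. That is a difference of 0.16 (SE 0.037, limma, adjusted p = 0.0478), a fold of 1.12 with an interval of 1.05 to 1.18, so that it passed the limit on p and not that on fold. Its partner Gnb3 read 5.58 ± 0.031 in WT and 5.597 ± 0.057 in KO (SD, n = 4 each), a difference of 0.020 (SE 0.041). The Gnb3 difference was 0.107 under quantile normalization, 0.0818 under cyclic loess and -0.0015 without KO replicate 4. Of 8 other gamma subunits 3 were higher and 5 lower in KO, with 0 called and a median of -0.0075 (0.0014 to 0.028 under the other scalings and normexp). Of 7 other alpha subunits 3 were higher and 4 lower, with 0 called and a median of -0.012 (-0.0017 after a median shift and up to 0.015 with normexp). Both splits turned to a majority of higher genes when scaled to the detected probes, by cyclic loess, by quantiles or by the authors, and that of the alpha subunits also with normexp, while the gamma subunits stood at 4 and 4 with normexp or a median shift.

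Rgs11 encodes one of the RGS proteins that speed the inactivation of Go and so the light response. Rgs11 levels were 4.73, 4.77, 4.75 and 4.76 in WT and 4.88, 4.86, 5.003 and 5.04 in KO. All KO samples lay above the WT samples, which spread by an SD of only 0.016. That is a difference of 0.19 (SE 0.049, limma, adjusted p = 0.0610), a fold of 1.14 with an interval of 1.06 to 1.23. Rgs11 and Gng13 both lie on chromosome 17, with 42 annotated genes between them.

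**Figure D2:**
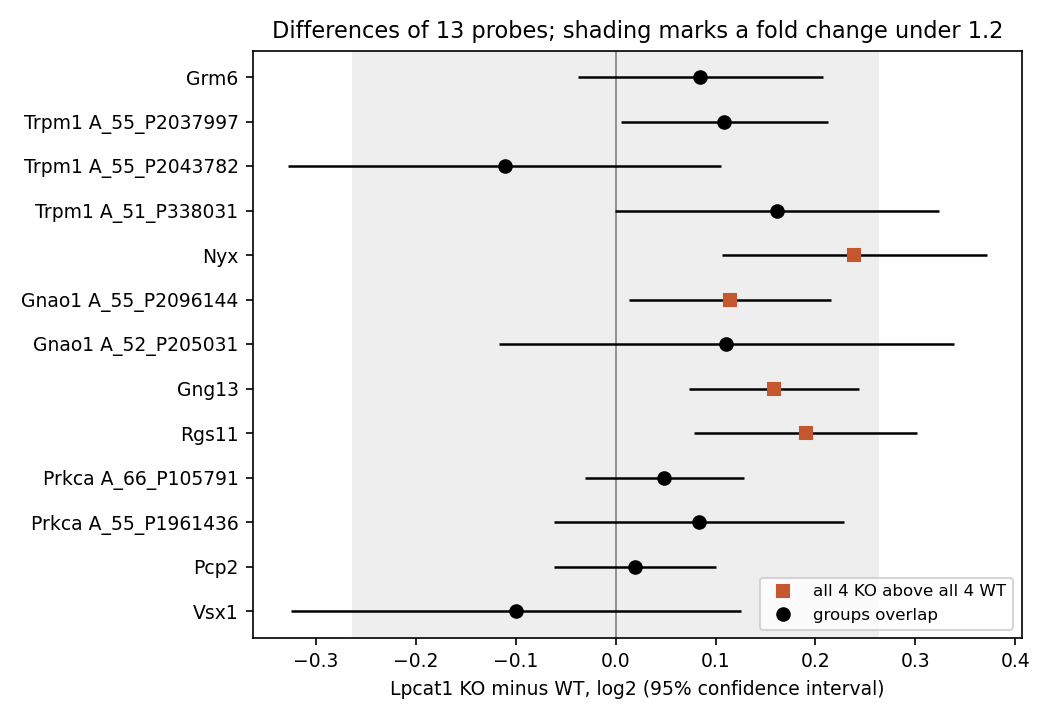
The horizontal axis is the KO minus WT difference of each of the 13 probes on the log2 scale, with its 95% confidence interval from limma as a line. Squares are probes whose KO samples all lay above the WT samples, and the shaded band holds fold changes under 1.2. The intervals of 8 of 13 probes include 0, and those of 6 reach past the band.

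The partners that hold and regulate these proteins were split in direction. Of 9 cascade partners 5 were higher and 4 lower in KO, with a median of 0.0012, and 0 were called by their brightest probe (4 higher and 5 lower with normexp). Their median was -0.0029 with normexp and up to 0.033 under cyclic loess. Gpr179, the orphan receptor that anchors the RGS complex, lay at 3.79 to 3.85 in WT and 3.93 to 3.96 in KO, without overlap, a difference of 0.11 (SE 0.033, limma, adjusted p = 0.0850). Rgs7, which acts beside Rgs11, gave 0.016 (SE 0.076). Gnb5, the obligate beta subunit of both, gave -0.066 (SE 0.074), with -0.127 without KO replicate 4 and -0.0234 without KO replicate 1. The 2 probes of Rgs9bp, a membrane anchor of RGS complexes mainly known from photoreceptors, gave 0.0054 (SE 0.033) and -0.12 (SE 0.064), the latter -0.0558 with normexp.

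Rgs7bp, the membrane anchor of RGS7-family proteins, was the one partner with a called probe, and its 3 probes for the same transcript disagreed. The called probe read 0.57, 0.60, 0.62 and 0.66 in WT and 0.96, 1.05, 1.00 and 0.99 in KO, a difference of 0.39 (SE 0.038, limma, adjusted p = 0.00445). The brightest probe read 6.25, 6.05, 6.06 and 5.84 in WT and 6.05, 5.77, 5.79 and 5.72 in KO, a difference of -0.22 (SE 0.10, limma, adjusted p = 0.233). The dimmest probe gave 0.19 (SE 0.069, limma, adjusted p = 0.153). A direction for the gene as a whole cannot be read from them.

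On the photoreceptor side of the synapse, 1 of 5 tested genes was higher and 4 were lower in KO, with 0 called and a median of -0.10. The split was 2 and 3 under cyclic loess and 0 and 5 with normexp. Elfn1, the trans-synaptic partner of mGluR6, was well above background on none of the 8 arrays.

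Prkca encodes protein kinase C alpha, the standard marker of rod bipolar cells. Its brighter probe read 4.87, 4.91, 4.86 and 4.90 in WT and 4.96, 4.95, 4.93 and 4.89 in KO, a difference of 0.049 (SE 0.035, limma, adjusted p = 0.434) that was 0.110 under quantile normalization and 0.0213 with normexp. The dimmer Prkca probe ranged from 0.84 to 0.97 in WT and from 0.82 to 1.07 in KO, a difference of 0.084 (SE 0.063, limma, adjusted p = 0.465) that was 0.139 without KO replicate 1 and 0.0542 without KO replicate 3. The groups overlapped on both probes. Of 8 other protein kinase C genes 6 were higher and 2 lower, with 0 called and a median of 0.031. With normexp the split was 5 and 3 with a median of 0.018, and under cyclic loess the median was 0.057.

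Pcp2, a regulator of Go signalling present in rod bipolar and ON cone bipolar cells, had the smallest difference under the reported scaling. It read 6.47, 6.49, 6.44 and 6.40 in WT and 6.49, 6.46, 6.47 and 6.46 in KO. That is a difference of 0.019 (SE 0.035, limma, adjusted p = 0.781), and the interval of 0.958 to 1.07 as a fold is among the narrowest of the members. Under quantile normalization the Pcp2 difference was 0.0930, under cyclic loess 0.0921 and without WT replicate 4 0.0035.

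Vsx1 encodes a homeobox factor of cone bipolar cells, OFF types included, and was the only member gene with no probe higher in KO. It read 1.49, 1.43, 1.45 and 1.36 in WT and 1.03, 1.47, 1.48 and 1.36 in KO. KO replicate 1 stood below the rest, and the other KO samples lay within the range of WT or at its edge. That is a difference of -0.10 (SE 0.098, limma, adjusted p = 0.581), and without KO replicate 1 it was 0.0016.

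Other genes of bipolar cells were read in the same way. Of 6 pan-bipolar genes 3 were higher and 3 lower in KO (4 and 2 under quantile normalization), with 0 called and a median of -0.0097. This median was above 0 under each of the other scalings and normexp, from 0.00072 after a median shift to 0.047 under quantile normalization. Otx2, a homeobox factor of photoreceptors as well as bipolar cells, lay at 5.74 to 5.84 in WT and 5.62 to 5.70 in KO, a difference of -0.13 (SE 0.039, limma, adjusted p = 0.0873) that was -0.0518 under quantile normalization and -0.0673 under cyclic loess. The 2 probes of Cabp5, a calcium-binding protein of rod and some cone bipolar cells, gave -0.076 (SE 0.20) and 0.079 (SE 0.056), the latter 0.0430 with normexp and 0.0489 without KO replicate 4.

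Of 7 further ON and rod bipolar genes 6 were higher and 1 lower, with 0 called and a median of 0.074. Bhlhe23, needed for rod bipolar maturation, gave 0.089 (SE 0.057), and 0.139 without KO replicate 4. Isl1, a LIM-homeobox factor of ON bipolar cells that amacrine and ganglion cells also use, gave -0.092 (SE 0.049).

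Of 5 tested OFF bipolar genes all had a higher value in KO, with 1 called and a median of 0.12. The called gene was Tacr3, the neurokinin receptor of some OFF bipolar types. It read -0.31, -0.18, -0.15 and -0.18 in WT and -0.050, 0.14, 0.19 and 0.16 in KO, a difference of 0.32 (SE 0.064, limma, adjusted p = 0.0339). No value of the groups overlapped. In the runs that left out any sample but KO replicate 1 Tacr3 missed the threshold, with an adjusted p of 0.0696 to 0.0906, and without KO replicate 1 it was 0.0164. Grik1, a kainate receptor of OFF bipolar cells, gave 0.12 (SE 0.10), and 0.0316 without KO replicate 1. Whether the ON and OFF lists differed was not tested.

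**Figure D3:**
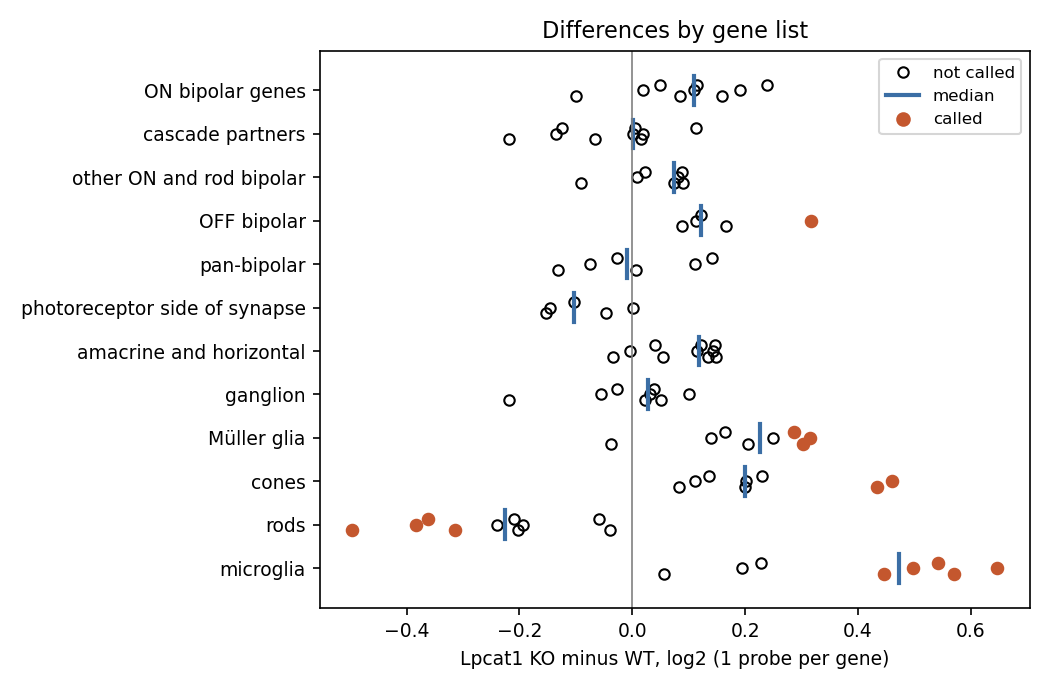
Each circle is 1 gene, by its brightest probe, and the horizontal axis is its KO minus WT difference on the log2 scale. Filled circles were called and blue bars are list medians. The ON bipolar genes centre on 0.11 and the cascade partners on 0.0012, while the rods lie to the left of 0 and the cones to the right.

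The retina is a mixture, and fewer cells of a type cannot be told apart from less RNA per cell in these data. Markers of other cell types were therefore read on the same arrays. All 10 rod markers were well above background on all arrays, and all 10 were lower in KO with 4 called and a median of -0.23. The sum of their levels on the linear scale was 1445 to 1493 in WT and 1235 to 1282 in KO. Under quantile normalization 2 of the 10 rod markers were higher and 2 were called, with a median of -0.13. Under cyclic loess 2 were higher and 3 called, with a median of -0.15. All 8 cone markers were higher with 2 called and a median of 0.20, and 7 of 8 Müller glia markers were higher with 3 called and a median of 0.23. Calls numbered 4 for cones and 5 for Müller glia under quantile normalization, and 3 and 5 under cyclic loess. All 8 microglia markers were higher, with 5 called and a median of 0.47. Of 10 amacrine and horizontal markers 8 were higher, with 0 called and a median of 0.12, and of 8 ganglion cell markers 5 were higher, with 0 called and a median of 0.027 (0.0074 with normexp and 0.060 under cyclic loess, where 6 were higher). Among tested markers of tissue next to the retina, 4 of 4 of pigment epithelium, 3 of 4 of lens and 2 of 2 of blood were higher, with 0 called.

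In each sample, the members were set beside the rod markers. The median deviation of the 13 member probes from their mean over all samples was -0.037, -0.026, -0.052 and -0.066 in WT and 0.027, 0.041, 0.094 and 0.071 in KO. That of the rod markers was 0.10, 0.084, 0.12 and 0.15 in WT and -0.094, -0.15, -0.10 and -0.12 in KO. Both separated the groups, as did the same medians of the cone, Müller glia, microglia, and amacrine and horizontal markers. The median deviation of all tested probes also separated them under this scaling, at 0.0084 to 0.024 in WT and -0.024 to -0.0091 in KO. Within WT the samples ranked in opposite orders, from replicate 2 with the highest member and lowest rod value to replicate 4 with the reverse. Within KO replicate 1 had the lowest member and the highest rod value. Replicate 3, however, had the highest member value and replicate 2 the lowest rod value. With 4 samples per genotype these orders were not tested. The part of the other cell types in the values of the members was not tested.

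The adjusted p of the leading members crossed 0.05 with the processing. Their differences kept their direction, but only the other scalings and normexp could have turned it. The remaining settings keep the values or drop or reweight samples, and no KO value of these genes overlapped WT. Over 24 alternative settings, the difference of Gng13 stayed between 0.14 and 0.25, and its adjusted p was under 0.05 in 13 of them, 3 of which change only the limits of a call. For Nyx the difference stayed between 0.21 and 0.28 with an adjusted p under 0.05 in 7, and for Rgs11 between 0.16 and 0.25 with an adjusted p under 0.05 in 4. Gng13 lost its adjusted p under 0.05 when any 1 sample was left out, with values of 0.0568 to 0.123.

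**Figure D4:**
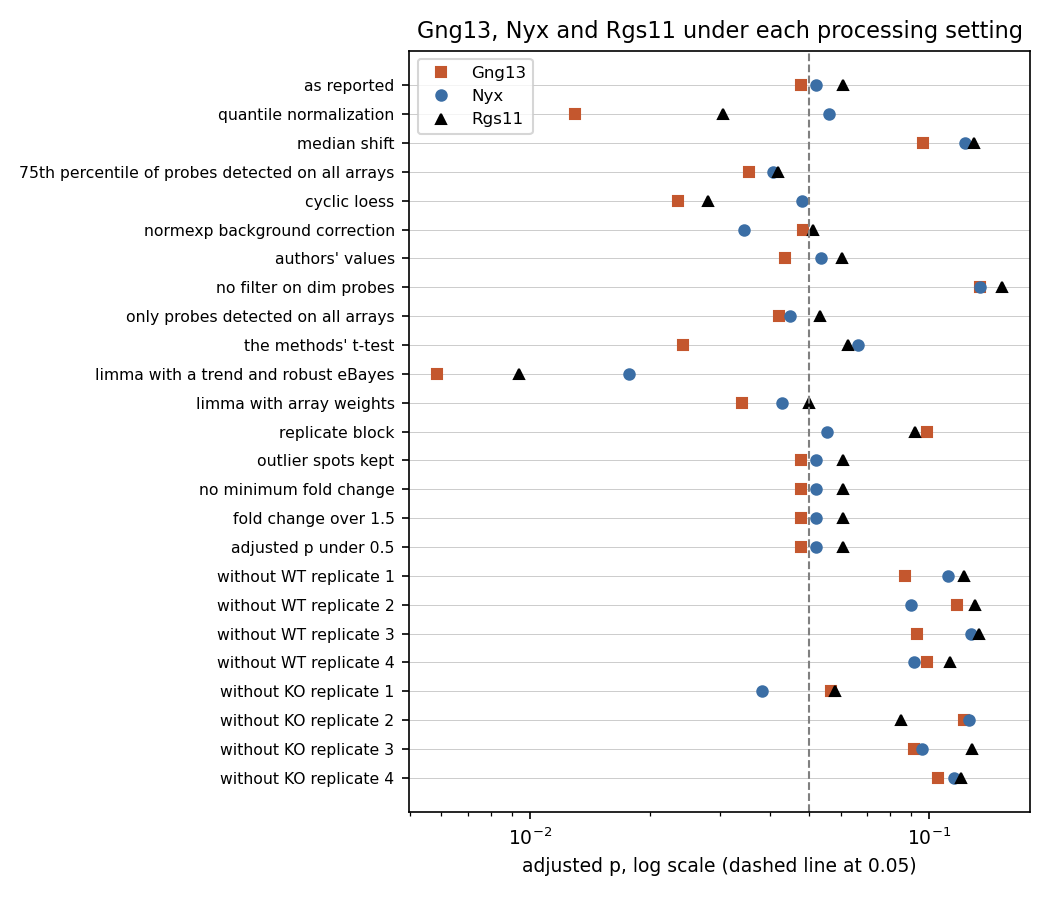
The horizontal axis, on a log scale, is the adjusted p of Gng13, Nyx and Rgs11 under the reported processing and each of 24 alternatives, 1 per row. The dashed line is 0.05. Gng13 lies left of the line in 13 of the alternatives and right of it in all 8 that leave out a sample.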

How the data were processed

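Total RNA of 8 whole-retina samples, 4 WT and 4 KO, was hybridised by the authors in 1 colour (Cy3) to Agilent SurePrint G3 mouse arrays and scanned and quantified by Feature Extraction 10.7.1.1. Per the file headers, each deposited scanner file gives a background-corrected intensity of 62976 spots, not scaled between arrays. The authors also deposited a table on a log2 scale, made by a 75th percentile shift in GeneSpring. It differed from the values computed here by a constant of 0.123 to 0.148 per array and served as an alternative.

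Here the 75th percentile of the log2 intensity of 59305 non-control spots was subtracted on each array, and the values were averaged per probe without outlier spots. Probes were named through their RefSeq accession (26413 of 55681, GRCm38.p6 table). The array was designed on another build, so no gene coordinates are given from it. The 33972 probes well above background on all 4 arrays of a genotype were tested with limma 3.58.1 (R 4.3.3), two-sided, with Benjamini-Hochberg adjustment over all of them. Calls needed a fold change over 1.2 besides an adjusted p under 0.05. A gene with several probes stood in its list by its brightest probe. The fit was tested on simulated data. Named are all members, the list genes with a called probe and a fixed choice of partners and bipolar genes, of which 1 is not reported here. The members and lists were chosen with earlier results of these data known. The number of arrays limits the precision, and the alternatives covered scaling, background, filter, test, limits, replicate block and leaving out each sample.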

Additional observations from a re-analysis of the deposited data

How the results depend on the processing

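The count of member probes called was 0 under the reported processing, 1 with no minimum fold change (Gng13) and 1 without KO replicate 1 (Nyx), and 0 under the other 22 alternatives, so that leaving out single samples gave 0 to 1. The median difference of the 13 probes was 0.11, with 0.157 under quantile normalization, 0.152 under cyclic loess and a range of 0.0777 to 0.123 when single samples were left out, the lowest without KO replicate 3. The count of all probes called was 992, with 246 without a filter on dim probes, 1869 with no minimum fold change, 138 at a fold change over 1.5, 3136 at an adjusted p under 0.5, and 391 (without WT replicate 2) to 1182 (without KO replicate 1) when single samples were left out. The share of calls that were higher in KO was 47.4%, and 61.4% and 64.0% when scaled to the detected probes and by cyclic loess. The methods' t-test after Benjamini-Hochberg adjustment called 701 probes and 0 members. With replicate number as a block, 395 probes were called and 0 members, and the adjusted p of Gng13 went from 0.0478 to 0.0988. With the block the SE of the brighter Cabp5 probe went from 0.20 to 0.067, and that of Gng13 from 0.037 to 0.041. Same-numbered samples correlated by 0.249, 0.0686, 0.0369 and 0.112 in their deviations, with 3 of 4 numbers matching best. The labels name no pairs, so the numbers neither establish nor exclude them. Differences near 0 changed sign. When single samples were left out, Rgs7 ranged from -0.032 (without WT replicate 1; also below 0 without KO replicates 3 or 4) to 0.073, Gnb3 from -0.0015 (without KO replicate 4) to 0.038, the brighter Rgs9bp probe from -0.0025 (without WT replicate 1) to 0.014, and the brighter Cabp5 probe from -0.26 to 0.042 (without KO replicate 4; also above 0 without WT replicate 1). Vsx1 ranged from -0.15 to 0.0016 (without KO replicate 1). The brighter Rgs9bp probe was -0.0029 with normexp and the brighter Cabp5 probe 0.011 under quantile normalization. Tacr3 was not called after a median shift (adjusted p = 0.0791), without a filter on dim probes (adjusted p = 0.0986) or at a fold change over 1.5, and the Rgs7bp call was lost only at a fold change over 1.5. The cause of these shifts was not tested.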
